A study of Homo sapiens with 4 samples.

Results

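DNA replication in human cells is carried out by a set of proteins that are loaded and fired in order. The origin recognition complex, CDC6 and CDT1 load the ring-shaped MCM2-7 helicase on DNA in G1, geminin (GMNN) blocks reloading later in the cycle, and MCM10, CDC45 and the GINS complex turn the loaded ring into an active helicase. Polymerase alpha with its primase starts each strand, the sliding clamp PCNA is placed by the clamp loader RFC and holds polymerases delta and epsilon on the template, RPA covers single-stranded DNA, and FEN1 and LIG1 process and join the lagging-strand fragments. Many of these genes are targets of E2F transcription factors and are transcribed around the entry into S phase. The genes described here are 41 components of this machinery, taken by gene symbol from the 62696 genes of the count tables. All 41 were found in all 4 tables, each on 1 row, and all 41 passed the minimum level used for the comparisons.

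RNA was sequenced from NT2 cells (NTERA-2), an established human embryonal carcinoma line with unlimited proliferation and the ability to form neurons. One library came from cells with an empty vector, whose genotype is given as wild type, and 3 libraries, numbered replicates 1 to 3, came from cells labelled as a HYDIN2 knockdown. All were grown in the same serum-containing medium. The labels do not say which construct was used, for how long, or if each replicate is a culture or clone of its own, so the spread between replicates may be technical. The column headers inside the tables name a LacZ control and numbered GKAP_KIF27 sets in place of these labels. HYDIN2 itself, the targeted gene, had 0.50 CPM with the empty vector against 2.41, 1.88 and 0.352 CPM in replicates 1, 2 and 3. HYDIN2 is a near-identical copy of HYDIN, so its reads could be split between both genes, and only 12 counts lay behind the first value. It was not below the empty vector library in replicates 1 and 2, so the targeted gene goes against the label there, and every direction below is that of libraries labelled knockdown.

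Levels are given as CPM, the usual count per unit of sequencing depth, in which a library's total is first scaled by the trimmed mean of M-values (TMM). Library totals ran from 25181737 to 62904698 counts, with the empty vector library the smallest. Replicates 1 and 2 lay close together and replicate 3 stood apart. Over all 15880 genes tested, those with a mean of at least 1 CPM, the median size of the log2 difference was 0.0959 between replicates 1 and 2 and 0.513 between replicates 1 and 3. Over the 41 replication genes it was 0.0563 and 0.519, and 18 of them differed at least 1.5-fold between replicates 3 and 1 against 0 between replicates 2 and 1. Replicate 3 is therefore given separately throughout. The defining markers of embryonal carcinoma cells were present in every library, with the 11 markers (LIN28A, NANOG, SOX2, POU5F1 and others) summing to 8995 CPM with the empty vector against 9849.9, 9981 and 8168 CPM in replicates 1, 2 and 3. LIN28A and PODXL made up much of this sum, and single markers differed. In all 3 replicates 5 of 11 were lower (POU5F1, DPPA4, TDGF1, DNMT3B and L1TD1), where 34.2% of all genes were. The 2 higher in all 3 were SALL4 and PODXL, where 30.1% of all genes were. PODXL had 1838 CPM with the empty vector against 2566, 2461.5 and 3866 CPM. NANOG was higher in replicates 1 and 2 and lower in replicate 3, with 502 CPM against 820, 817 and 323 CPM. DNMT3B, a DNA methyltransferase of pluripotent cells, was 2-fold lower in each replicate. It had 795 CPM with the empty vector against 339.8, 350.4 and 349 CPM. L1TD1 was 1.5-fold lower in each replicate, with 472 CPM with the empty vector against 241, 239 and 227 CPM. With 1 empty vector library there is no replicate check on the control side, and an exact permutation test of 1 library against 3 cannot go below 0.25. Differences are therefore given by library and by fixed fold rules, with the share of all genes that meet each rule.

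The promoters of GMNN, PCNA and MCM3 are shown first because these genes were at least 1.5-fold lower in every library labelled knockdown, and that of MCM6 because it held the most E2F letters of any member. Promoter windows of 300 bases, from 250 before to 50 after a RefSeq start (GRCh38.p14), were found for 35 of the 41 genes. Entries for MCM4, MCM5, GINS4, POLD3, RPA2 and RPA3 were missing. The E2F letters searched on both strands were TTTCCCGC, TTTCGCGC, TTTGCCGC and TTTGGCGC, and overlapping matches were kept. Of the 35 genes, 18 had at least 1 match in a window (51.4%), against 1090 of 27305 genes in the whole table (3.99%). Printed below are the 250 bases before the start, 5′ to 3′, with the matched letters in capitals, for GMNN (chr6:24775163-24775412, plus strand), PCNA (chr20:5126623-5126872, minus strand), MCM3 (chr6:52284743-52284992, minus strand) and MCM6 (chr2:135876444-135876693, minus strand).
GMNN: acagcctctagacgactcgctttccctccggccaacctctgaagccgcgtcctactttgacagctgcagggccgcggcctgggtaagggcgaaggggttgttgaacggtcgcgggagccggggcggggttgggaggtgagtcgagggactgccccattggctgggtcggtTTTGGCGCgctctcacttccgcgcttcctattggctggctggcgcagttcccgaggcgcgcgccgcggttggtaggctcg
PCNA: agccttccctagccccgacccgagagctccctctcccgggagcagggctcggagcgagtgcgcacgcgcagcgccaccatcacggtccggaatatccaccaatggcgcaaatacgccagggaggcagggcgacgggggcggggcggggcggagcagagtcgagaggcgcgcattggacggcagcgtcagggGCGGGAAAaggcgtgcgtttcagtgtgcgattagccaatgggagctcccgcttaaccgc
MCM3: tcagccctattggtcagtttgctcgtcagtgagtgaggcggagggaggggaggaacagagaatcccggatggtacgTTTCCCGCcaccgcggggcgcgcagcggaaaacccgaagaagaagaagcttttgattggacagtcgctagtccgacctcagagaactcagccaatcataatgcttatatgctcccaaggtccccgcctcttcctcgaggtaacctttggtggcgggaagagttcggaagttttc
MCM6: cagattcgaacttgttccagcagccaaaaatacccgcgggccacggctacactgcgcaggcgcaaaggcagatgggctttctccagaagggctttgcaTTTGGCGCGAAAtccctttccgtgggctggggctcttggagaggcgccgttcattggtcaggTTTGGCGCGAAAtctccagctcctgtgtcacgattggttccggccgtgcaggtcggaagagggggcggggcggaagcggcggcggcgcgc

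GMNN and PCNA each held 1 match in the printed stretch, at 80 and 59 bases before the start. Each also had another window, at chr6:24774687-24774986 and chr20:5119909-5120208, that held no match. MCM3 held 1 match at 174 bases before the start and a second, not capitalised, that spans the start itself. MCM6 had the most matches of any member, 4 in number, in 2 stretches where a forward and a reverse match overlap. CDC45, the other gene at least 1.5-fold lower in every library labelled knockdown, had none in its 3 windows. A match was present for 15 of the 28 matched genes that were lower in all 3 libraries and for 3 of the 7 others, a difference that was not tested. The CCAAT box, the letters CCAAT on either strand, was present for 21 of the 35 genes (60.0%) and for 39.7% of all genes. The CHR element, searched as TTTGAA and TTCGAA, was present for 1 of the 35 genes, MCM6, and for 19.5% of all genes. A match is a description of these letters and not a site of binding.

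Replication genes were mostly lower in the libraries labelled knockdown. Their summed level was 5619 CPM with the empty vector against 3841, 4016 and 4079.8 CPM in replicates 1, 2 and 3. In unscaled counts they took 0.536% of the control library, against 0.380%, 0.389% and 0.446% of the replicates. Of the 41 genes, 33 had all 3 labelled knockdown libraries below the empty vector library, where 34.2% of all genes tested did. Only POLA2 had all 3 above it, where 30.1% of all genes did, and 7 were mixed. The median over the 41 genes of the mean log2 difference was -0.52, and the medians in replicates 1, 2 and 3 were -0.54, -0.50 and -0.49. Over all genes tested the median was -0.02, and by replicate it was 0.03, 0.05 and -0.15. For 28 of the 33 genes, the counting intervals of all 3 ratios lay below 1. These intervals cover counting error only, and no share over all genes was taken, so the count of 28 has no background. In bulk RNA, fewer cells in S phase and less RNA per cell cannot be told apart.

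The differences were mostly below 1.5-fold. GMNN, PCNA, CDC45 and MCM3 were at least 1.5-fold lower in each of the 3 libraries, where 9.61% of all genes were, so a count of 4 of 41 lies near the background. MCM3 was not among them under total-count or upper quartile scaling, which left 3. None of the 41 was 1.5-fold higher in each, where 10% of all genes were. GMNN alone was at least 2-fold lower in each, where 2.72% of all genes were, and no member was 2-fold higher, where 3.65% were. These counts were larger without replicate 3. Then 36 members were lower and 5 higher in both remaining libraries (46.4% and 46.7% of all genes). Of these, 16 were 1.5-fold lower, where 16.7% of all genes were, and RFC1 alone was 1.5-fold higher, where 19.1% were. CDC6, CDT1, GMNN, POLD3, PCNA and RPA1 were then 2-fold lower, where 5.97% of all genes were. edgeR's quasi-likelihood test with Benjamini-Hochberg adjustment over 26029 genes called 0 members and 0% of all genes. At an unadjusted p under 0.05 it listed 10 members, all lower, where 11.6% of all genes were listed, and the smallest adjusted p of a member was 0.358. DESeq2's Wald test and limma voom also called 0 members.

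**Figure D1:**
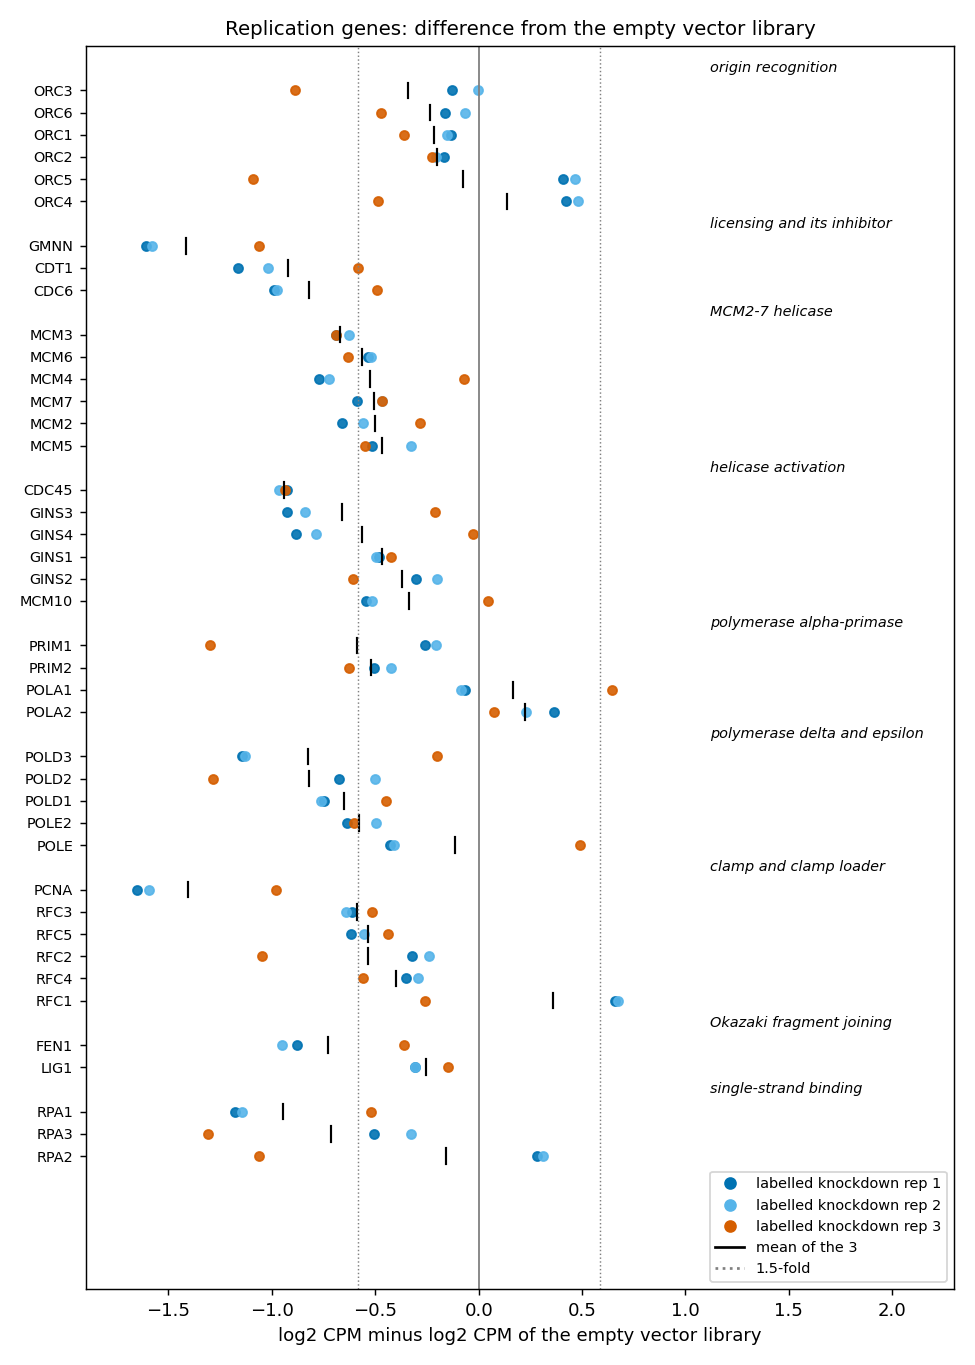
Log2 difference in CPM from the empty vector library (x axis) for the 41 replication genes, grouped by role and sorted by the mean. Points are the 3 labelled knockdown libraries, black ticks their mean, and dotted lines mark 1.5-fold; 33 genes have all 3 points left of 0 and only POLA2 has all 3 to the right.

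By the mean over the 3 replicates, the licensing factors and their inhibitor were the role group furthest below the empty vector library. All 3 genes were lower in every replicate, with a median log2 difference of -0.92. In replicate 3 alone their median was -0.58, and the RPA genes were lower, at -1.06. GMNN (ENSG00000112312.10, chromosome 6, 24774931 to 24786099 on the plus strand of GRCh38), the protein that binds CDT1 and prevents a second round of licensing, had 94.7 CPM with the empty vector against 31, 31.7 and 45.4 CPM in replicates 1, 2 and 3. All 3 replicates were below the empty vector library, at ratios of 0.327 (0.30 to 0.357) in replicate 1, 0.334 (0.306 to 0.365) in replicate 2 and 0.479 (0.435 to 0.526) in replicate 3, with 95% Clopper-Pearson intervals that cover counting error only. The mean log2 difference was -1.42 ± 0.31 (SD, n = 3). CDT1, the loader that geminin inhibits, had 121 CPM with the empty vector against 54.1, 59.9 and 81.1 CPM in replicates 1, 2 and 3, with a mean log2 difference of -0.92 ± 0.30 (SD, n = 3). CDC6, the ATPase that recruits MCM2-7 to the origin recognition complex, had 185 CPM with the empty vector, then 93.1, 93.9 and 132 CPM in replicates 1, 2 and 3 in turn, with a mean log2 difference of -0.82 ± 0.28 (SD, n = 3). For both, replicate 3 was intermediate, above replicates 1 and 2 and below the control. The count of GMNN per count of CDT1, which does not depend on the scaling, was 0.780 with the empty vector against 0.573, 0.529 and 0.559 in replicates 1, 2 and 3. In counts, GMNN was thus low relative to CDT1 in all 3 replicates. With trends on transcript length and GC content removed, as described below, this held in replicates 1 and 2 only. GMNN then had log2 differences of -1.32, -1.36 and -0.51 in replicates 1, 2 and 3, and CDT1 had -0.96, -0.78 and -0.51. The count of CDC6 per count of ORC1 was 1.26 with the empty vector against 0.695, 0.712 and 1.15 in replicates 1, 2 and 3, and here replicate 3 was near the empty vector library.

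The origin recognition complex, the 6-subunit platform that marks origins, differed less, with 4 of 6 genes lower in all 3 replicates and a median log2 difference of -0.21. ORC1, the subunit that is itself regulated through the cell cycle, had 147 CPM in the control and 134, 132 and 114 CPM in the replicates, in order. ORC2, with the smallest spread of the complex, had 95.5 CPM with the empty vector against 84.9, 82.8 and 81.8 CPM in replicates 1, 2 and 3. ORC1, ORC2, ORC3 and ORC6 had all 3 replicates below the empty vector library, with mean log2 differences between -0.34 for ORC3 and -0.20 for ORC2. ORC3 had 127 CPM with the empty vector and 117, 127 and 68.8 CPM in replicates 1, 2 and 3, so that replicate 3 was low and replicate 2 level with the control. ORC3 was no longer lower in all 3 under total-count scaling. ORC4 and ORC5, core subunits of the AAA+ ring, split the replicates. ORC4 had 122 CPM with the empty vector, then 164, 171 and 87.3 CPM in replicates 1, 2 and 3 in turn. ORC5 had 39.9 CPM in the control and 52.9, 55 and 18.7 CPM in the replicates, in order. In both genes replicates 1 and 2 were above the empty vector library and replicate 3 was below it. The count of all MCM2-7 genes per count of all ORC genes was 3.55 with the empty vector against 2.21, 2.27 and 3.94 in replicates 1, 2 and 3. This ratio was lower than in the empty vector library in replicates 1 and 2 and higher in replicate 3.

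All 6 genes of the MCM2-7 helicase were below the empty vector library in all 3 replicates, with mean log2 differences in the narrow range from -0.67 to -0.47 and a median of -0.52. MCM3 (ENSG00000112118.20, chromosome 6, 52264009 to 52284881 on the minus strand) had 341 CPM with the empty vector against 211, 221 and 211 CPM in replicates 1, 2 and 3. The 3 replicates lay together, at ratios of 0.619 (0.595 to 0.644) in replicate 1, 0.648 (0.624 to 0.674) in replicate 2 and 0.619 (0.591 to 0.648) in replicate 3. MCM6 had 259 CPM with the empty vector, then 179, 181 and 167 CPM in replicates 1, 2 and 3 in turn, MCM7 366 CPM against 244, 265 and 265 CPM, and MCM5 281 CPM against 196, 224 and 192 CPM. In these genes too replicate 3 was close to the others. MCM2 had 163 CPM in the control and 103, 111 and 134 CPM in the replicates, in order. MCM4 had 713 CPM with the empty vector against 417, 432 and 679 CPM in replicates 1, 2 and 3, so replicate 3 was nearly at the empty vector level. MCM4 was no longer below it in replicate 3 under total-count or upper quartile scaling, which left 5 of the 6 genes lower in all 3 replicates.

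Per kilobase of annotated exon, which allows genes to be compared, the MCM2-7 transcripts were not equally abundant. In the empty vector library MCM4 had 102 CPM per kb, MCM3 93.4, MCM7 83.5, MCM6 63.0, MCM5 38.3 and MCM2 33.3. The means of the labelled knockdown libraries were 73.0 ± 21.1 for MCM4, 58.8 ± 2.82 for MCM7, 58.8 ± 1.59 for MCM3, 42.6 ± 1.83 for MCM6, 27.8 ± 2.35 for MCM5 and 23.7 ± 3.30 CPM per kb for MCM2 (SD, n = 3). MCM4 was above MCM3 and MCM7 in every library, but by little in replicates 1 and 2. There MCM4 had 59.8 and 61.9 CPM per kb, MCM3 57.9 and 60.6, and MCM7 55.5 and 60.5. In replicate 3, which gave MCM4 its wide SD, it had 97.4 CPM per kb against 57.8 for MCM3 and 60.4 for MCM7. The proteins form a ring with 1 copy of each subunit. Exon lengths are those of all annotated transcripts together, so a gene with many unused exons is placed too low.

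Among the factors that activate the helicase, 5 of 6 genes were lower in all 3 replicates, with a median log2 difference of -0.52, and the values of CDC45 were the most even. CDC45 (ENSG00000093009.11, chromosome 22, 19479459 to 19520612 on the plus strand), which joins MCM2-7 and GINS in the active helicase, had 21.1 CPM with the empty vector, then 11.1, 10.8 and 11 CPM in replicates 1, 2 and 3 in turn. This gave ratios of 0.526 (0.446 to 0.621) in replicate 1, 0.511 (0.432 to 0.605) in replicate 2 and 0.521 (0.427 to 0.635) in replicate 3. Its mean log2 difference of -0.94 ± 0.02 (SD, n = 3) had the smallest spread between replicates of the 41 genes. The 4 GINS subunits were all below the empty vector library in each replicate. GINS1 had 139.7 CPM in the control and 100.0, 99.1 and 104 CPM in the replicates, in order, and GINS2 had 55 CPM against 44.6, 47.9 and 36.1 CPM. GINS3 had 24.7 CPM against 13.0, 13.8 and 21.4 CPM, and GINS4 had 30.5 CPM against 16.5, 17.6 and 29.9 CPM. For GINS3 and GINS4 the ratio of replicate 3 had a counting interval that included 1, and GINS4 was no longer lower in all 3 replicates under total-count or upper quartile scaling. MCM10, a scaffold needed for helicase activation, had 66.9 CPM with the empty vector against 45.9, 46.7 and 69.1 CPM in replicates 1, 2 and 3, so its groups overlapped.

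The genes of polymerase alpha and its primase did not share a direction: 2 of 4 were lower and 1 higher in all 3 replicates, with a median log2 difference of -0.18. POLA1, the catalytic polymerase subunit, had 84.4 CPM with the empty vector, then 80.5, 79.6 and 132 CPM in replicates 1, 2 and 3 in turn. Replicates 1 and 2 had counting intervals that included the empty vector level, and replicate 3 was above it. POLA2, the regulatory subunit, had 11 CPM in the control and 14.2, 12.9 and 11.6 CPM in the replicates, in order, and a mean log2 difference of 0.22 ± 0.15 (SD, n = 3). It was the 1 gene with all 3 replicates above the empty vector library, but only the interval of replicate 1 excluded equality. Per kilobase it was the lowest of the 41 genes, with 1.93 CPM with the empty vector and a replicate mean of 2.26 ± 0.229 CPM per kb (SD, n = 3). The primase subunits lay on the other side. PRIM1, the catalytic primase, had 62.4 CPM with the empty vector against 52.1, 54.0 and 25.4 CPM in replicates 1, 2 and 3. PRIM2, its partner, had 43.1 CPM with the empty vector, then 30.3, 32.0 and 27.9 CPM in replicates 1, 2 and 3 in turn. PRIM1 was lowest in replicate 3, whereas the 3 replicates of PRIM2 lay close together. Exons of POLA2 and PRIM1 overlap those of AP000944.2 and NACA on the same strand, as those of POLD1, POLD3 and FEN1 overlap AC020909.1, AP001372.2 and FADS2, so counts of these genes are uncertain.

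For the replicative polymerases, the 3 delta subunits and POLE2 were lower in all 3 replicates and POLE was not, with a median log2 difference of -0.65 over the 5 genes. POLD1, the catalytic subunit of polymerase delta, had 64.1 CPM in the control and 38.1, 37.8 and 47.0 CPM in the replicates, in order. POLD2 had 305 CPM with the empty vector against 191, 215 and 125 CPM in replicates 1, 2 and 3, with replicate 3 the lowest. POLD3, which carries a binding motif for PCNA, had 91.5 CPM with the empty vector, then 41.3, 41.8 and 79.5 CPM in replicates 1, 2 and 3 in turn, with replicate 3 close to the empty vector library. Replicate 3 thus stood on opposite sides of replicates 1 and 2 for POLD2 and POLD3. POLE, the catalytic subunit of polymerase epsilon, had 164 CPM in the control and 122, 123 and 229.8 CPM in the replicates, in order. Replicates 1 and 2 were below the empty vector library and replicate 3 was above it. POLE2, the second subunit, had 43.7 CPM with the empty vector against 28.0, 30.9 and 28.7 CPM in replicates 1, 2 and 3, with a mean log2 difference of -0.58 ± 0.07 (SD, n = 3).

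PCNA was the most abundant of the 41 genes per kilobase in every library and one of those furthest below the empty vector library. PCNA (ENSG00000132646.11, chromosome 20, 5114953 to 5126626 on the minus strand), the ring that tethers polymerases to DNA, had 330.3 CPM with the empty vector, then 105, 109 and 167 CPM in replicates 1, 2 and 3 in turn. All were below the control, at ratios of 0.318 (0.304 to 0.334) in replicate 1, 0.331 (0.316 to 0.347) in replicate 2 and 0.507 (0.482 to 0.533) in replicate 3, and the mean log2 difference was -1.41 ± 0.37 (SD, n = 3). Per kilobase it had 225 CPM with the empty vector, and the 3 replicates averaged 86.6 ± 23.6 CPM per kb (SD, n = 3). Annotated pseudogenes of PCNA (PCNAP1, PCNAP3 and PCNAP4) could share reads with it, so its level is uncertain to that extent, as are those of POLD2, RFC3, RFC5, FEN1 and RPA2, which also have annotated copies. The loader that opens the clamp differed less: 4 of its 5 genes were lower in all 3 replicates. RFC3 had 107 CPM in the control and 70.0, 68.7 and 74.8 CPM in the replicates, in order, and RFC5 and RFC4 had mean log2 differences of -0.54 ± 0.09 (SD, n = 3) and -0.40 ± 0.14 (SD, n = 3). RFC2 had 138 CPM with the empty vector against 110.3, 117 and 66.7 CPM in replicates 1, 2 and 3, with replicate 3 the lowest. RFC1, the large subunit, had 109 CPM with the empty vector, then 173, 175 and 91.3 CPM in replicates 1, 2 and 3 in turn, and was the member furthest above the empty vector library in replicates 1 and 2. The count of PCNA per count of all 5 RFC genes was 0.735 with the empty vector against 0.249, 0.253 and 0.559 in replicates 1, 2 and 3. In counts, PCNA was thus low relative to its loader in all 3 replicates, and least so in replicate 3. With trends on transcript length and GC content removed, as described below, replicate 3 was divided. PCNA then had a log2 difference of -0.46 there, against -0.48 for RFC1, -0.55 for RFC2, -0.15 for RFC3, -0.05 for RFC4 and -0.20 for RFC5.

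The genes of lagging-strand joining were both lower in all 3 replicates. FEN1, the nuclease that trims flaps between fragments, had 95.3 CPM in the control and 51.8, 49.3 and 74.3 CPM in the replicates, in order. LIG1, the ligase that seals them, had 43.0 CPM with the empty vector against 34.8, 34.8 and 38.9 CPM in replicates 1, 2 and 3, the counting interval of replicate 3 included the control level, and LIG1 was no longer lower in replicate 3 under total-count scaling. The 3 subunits of RPA, which bind single-stranded DNA as a trimer, each had a different pattern, with 2 of 3 lower in all 3 replicates and a median log2 difference of -0.71. RPA1, the large DNA-binding subunit, had 142 CPM with the empty vector, then 62.9, 64.4 and 99.2 CPM in replicates 1, 2 and 3 in turn, with replicates 1 and 2 lowest. RPA3, the smallest subunit, had 162 CPM in the control and 114, 129 and 65.3 CPM in the replicates, in order, with replicate 3 lowest. Exons of RPA1 and RPA3 overlap those of SMYD4 and UMAD1 on the other strand, so their counts are uncertain if strand was not used in counting. RPA2, the subunit phosphorylated upon replication stress, had 67.2 CPM with the empty vector against 81.7, 83.3 and 32.1 CPM in replicates 1, 2 and 3, above the empty vector library in replicates 1 and 2 and below it in replicate 3. The count of RPA1 per count of RPA2 was 2.12 with the empty vector against 0.770, 0.773 and 3.09 in replicates 1, 2 and 3. Replicates 1 and 2 were lower than the empty vector library in this ratio and replicate 3 was higher.

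**Figure D2:**
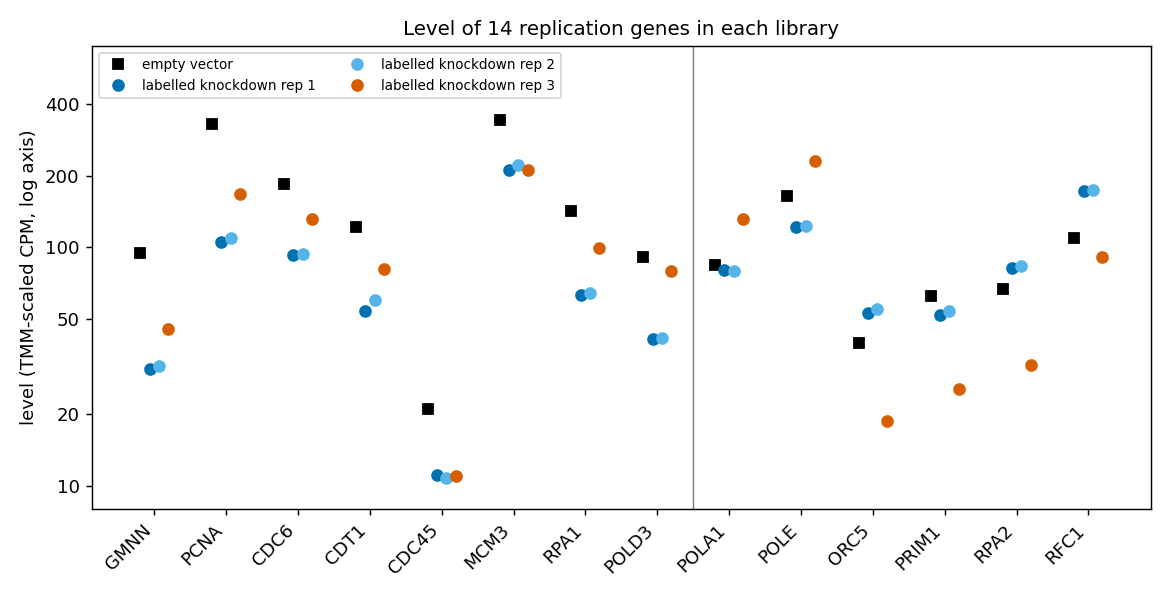
Level of 14 replication genes in each library (y axis, TMM-scaled CPM on a log axis; squares, empty vector; circles, labelled knockdown replicates 1 to 3). Left of the line are 8 genes with all 3 replicates below the empty vector library, such as GMNN at 94.7 CPM against 31 to 45.4 CPM. Right of it are 6 genes in which replicate 3 departs from replicates 1 and 2. The 2 sides are not exclusive. PRIM1, on the right, also has all 3 replicates below the empty vector library. On the left, replicate 3 departs as well in some genes, such as POLD3 at 79.5 CPM against 41.3 and 41.8 CPM.

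Replicate 3 differed from replicates 1 and 2 in both directions among the replication genes, and transcript length moved with this difference. Relative to replicate 1, ORC5, RPA2 and PRIM1 were furthest below, with log2 differences of -1.50, -1.35 and -1.04. POLD3, POLE and GINS4 were furthest above, with 0.94, 0.92 and 0.85. Across the 41 genes the Spearman correlation of this difference with the longest annotated transcript was 0.368, a description of genes that share 2 libraries. PCNA and GMNN, among the shortest transcripts with 1359 and 1262 nt, were above replicate 1 in replicate 3 and so went against that trend. ORC4 and RFC1, with 6710 and 4886 nt, went against it as well.

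**Figure D3:**
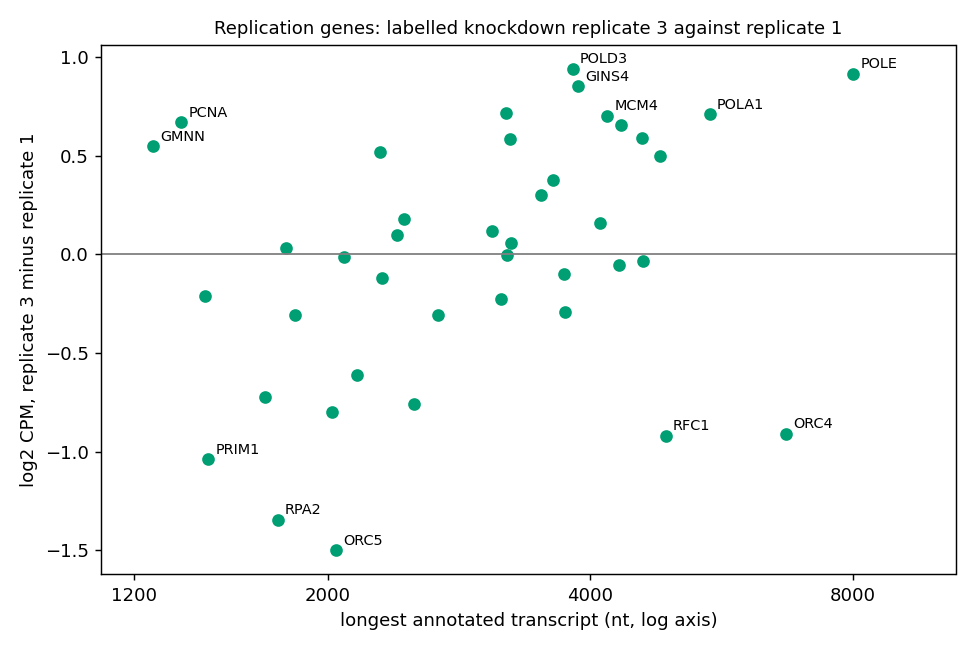
Log2 CPM of labelled knockdown replicate 3 minus replicate 1 (y axis) against the longest annotated transcript (x axis, nt on a log axis) for the 41 replication genes. Each point is 1 gene; POLD3 and POLE lie highest, ORC5 and RPA2 lowest, and GMNN and PCNA lie above 0 although their transcripts are the shortest.

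Transcript length also moved with the difference from the empty vector library. Over all genes with an annotated transcript, the Spearman correlation with length was 0.347, 0.298 and 0.460 for replicates 1, 2 and 3, and over the 41 replication genes that of the mean difference was 0.353. The median longest transcript was 3202 nt for the replication genes and 3519 nt for all genes with a length. With smooth trends on length and GC content removed, 31 of the 41 genes were lower in all 3 replicates, where 34.3% of all genes were, 29 of them among the 33, and the median log2 difference was -0.43. ORC3, ORC6, PRIM1 and RFC2 left the count, and MCM10 and POLE entered it. POLA2 was again the 1 gene higher in all 3, where 25.9% of all genes were. The size of the largest differences was smaller after removal. GMNN then had corrected log2 differences of -1.32, -1.36 and -0.51 in replicates 1, 2 and 3, PCNA -1.35, -1.36 and -0.46, CDC45 -0.65, -0.72 and -0.57 and MCM3 -0.60, -0.51 and -0.64, so none of these 4 stayed 1.5-fold lower in each replicate. CDC6, with -1.12, -1.07 and -0.77, and RPA1, with -1.24, -1.17 and -0.71, reached it, a count of 2 where 7.01% of all genes did.

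The remaining S-phase genes, in lists outside the 41, were set beside them. The nucleotide supply list, mostly genes that make or salvage the DNA precursors, had 7 of 11 lower and 0 higher in all 3 replicates. Its median log2 difference was -0.62. SAMHD1, which neither makes nor salvages them, was among the 7. TK1, the salvage kinase of S phase, had 50.9 CPM with the empty vector, then 17.8, 18.1 and 19 CPM in replicates 1, 2 and 3 in turn, and was 2-fold lower in each, and DUT and DCK were 1.5-fold lower in each. In the list named for chromatin assembly at forks, 5 of 8 were lower and 0 higher, with a median of -0.55. ASF1B and SLBP were 1.5-fold lower in each replicate. Firing and fork factors that are not among the 41 had 10 of 24 lower and 4 higher, with a median of -0.12, and TIPIN and POLE4 were 1.5-fold lower in each. Against 34.2% lower and 9.61% at least 1.5-fold lower over all genes tested, this list was near the background. DUT, DCK, ASF1B, SLBP, TIPIN and POLE4 are named after their values were seen.

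Regulators of the G1/S transition were divided, with 12 of 26 lower (46.2%) and 8 higher (30.8%) and a median of -0.10. Over all genes tested 34.2% were lower and 30.1% higher. The 8 higher were E2F7, E2F8, RB1, RBL1, CCND1, CCND2, CDK6 and CDKN1B. Of the remaining E2F genes, E2F1, E2F2, E2F4, E2F5 and E2F6 were lower in all 3 replicates and E2F3 was mixed. CCNE1, the cyclin that starts S phase with CDK2, had 46.7 CPM in the control and 14.4, 15.9 and 21.9 CPM in the replicates, in order, and was 2-fold lower in each replicate. E2F1, an activator of S-phase genes, had 64.7 CPM with the empty vector against 35.4, 38.2 and 32.1 CPM in replicates 1, 2 and 3, and CDK6 was the 1 gene of the list 1.5-fold higher in each, with 154 CPM with the empty vector, then 598, 559 and 264 CPM in replicates 1, 2 and 3 in turn. Checkpoint genes had 3 of 9 lower and 3 higher. Mitotic genes had 12 of 20 lower and 5 higher, with medians of -0.14, -0.13 and -0.64 in replicates 1, 2 and 3. CCNB1, AURKB and BIRC5 were 1.5-fold lower in each and CENPF 1.5-fold higher. MKI67, the proliferation marker, was on the higher side, with 254 CPM in the control and 372, 342 and 901 CPM in the replicates, in order. Values of these lists are given without removal of the length trend, which over all genes was strongest in replicate 3 (Spearman 0.460). The part of transcript length in CDK6, CENPF and MKI67 was not tested. At 34.2% lower and 30.1% higher over all genes tested, the checkpoint list was close to the background. The genes named here, other than CCNE1, are named after their values were seen.

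**Figure D4:**
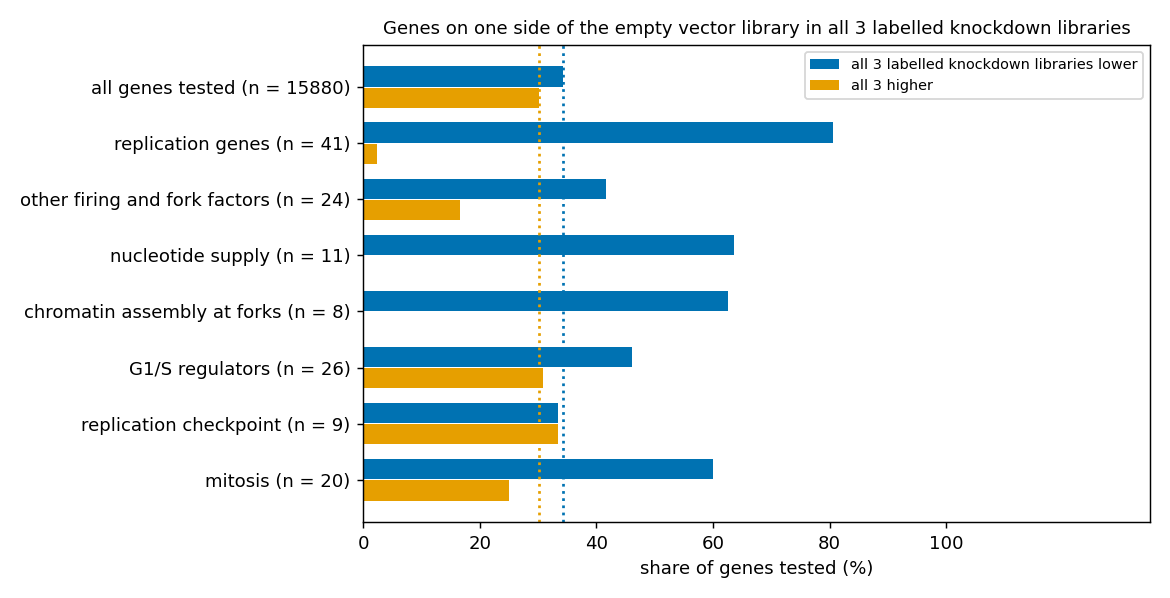
Share of genes tested (x axis, %) with all 3 labelled knockdown libraries below (blue) or above (orange) the empty vector library, by list; dotted lines mark the shares over all genes. The replication genes stand at 80.5% below and 2.44% above, against 34.2% and 30.1% of all genes.

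Markers of other cell types were measured beside these groups. The 11 neural markers summed to 25.3 CPM with the empty vector against 80.2, 75.0 and 52.7 CPM in replicates 1, 2 and 3, with PAX6 and NEUROG2 at 0 counts with the empty vector. PAX6, a neural transcription factor, was listed at 15.4, 13.1 and 2.95 CPM in the replicates. MAP2, a neuronal microtubule protein, had 9.16 CPM with the empty vector against 24.0, 22.8 and 34.5 CPM. Of the 8 neural markers tested, 4 were higher in all 3 replicates, 0 lower and 4 mixed, where 30.1% of all genes were higher and 34.2% lower. The 7 mesenchymal markers summed to 504 CPM with the empty vector against 645, 634 and 420.4 CPM in replicates 1, 2 and 3, with DCN at 0 counts in 3 of the 4 libraries. PDGFRB, a growth factor receptor of mesenchymal cells, had 34.1 CPM with the empty vector against 94.5, 86.6 and 73.6 CPM. COL3A1 was lower in replicates 1 and 2, with 4.04 CPM with the empty vector against 0.739, 0.57 and 6.21 CPM. THY1 was lower in replicate 3, with 362 CPM with the empty vector against 382, 394 and 210 CPM. Of the 6 mesenchymal markers tested, 3 were higher in all 3 replicates, 0 lower and 3 mixed, where 30.1% of all genes were higher. The 5 endoderm markers summed to 4.33 CPM with the empty vector against 9.77, 7.94 and 19.8 CPM in replicates 1, 2 and 3, with FOXA2 and AFP at 0 counts with the empty vector. Neural and endoderm marker sums were thus higher in all 3 replicates than in the control, while the summed replication genes were lower, and the 11 embryonal carcinoma markers were divided. The part of these markers, of depth and of transcript length in the level of the replication genes was not tested.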

How the data were processed

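Gene counts are the authors' own, deposited raw in a separate table for each library. STAR 2.7.11b, featureCounts 2.0.6, DESeq2 and the builds hg38 and GRCh38 are named, with no role, per the submitters' processing notes. Libraries were depleted of ribosomal RNA and strand-specific, per the labels' protocols. The annotation release, strand setting and counting of pairs are not given in the sources used here. Between 65.2% and 68.0% of nonzero counts were even, as if each fragment were counted through both of its reads, so counting intervals (95%, Clopper-Pearson) used counts divided by 2.

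Counts were scaled with TMM factors from edgeR 4.0.16 (R 4.3.3), computed on genes kept by filterByExpr, and log2 CPM used a prior count of 2. Genes entered at a mean of the group mean CPMs of at least 1. edgeR's quasi-likelihood test, DESeq2 1.42.0 and limma 3.58.1 gave calls at an adjusted p under 0.05, with a spread that comes from the labelled knockdown libraries alone. Coordinates, exon lengths and transcripts came from GENCODE 29 (GRCh38), in which 58269 of 62696 identifiers matched. The computations were tested on simulated data. On halved counts, replicates 1 and 2 differed beyond sampling noise (chi-square divided by its degrees of freedom, 6.90) and were kept as separate samples. Exons of 17 of the 41 genes overlap those of another annotated gene, so their counts are uncertain.

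The members and lists were chosen with earlier results of these data known. By rule, values are given for members 1.5-fold away in each replicate, for the extremes of each role group and for members on which replicate 3 disagreed, and for genes of the pathway lists 2-fold away in each replicate. Values of single cell type markers were chosen after they were seen.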

Additional observations from a re-analysis of the deposited data

How the results depend on the processing

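No paired analysis was possible because only 1 empty vector library was analysed here, which leaves a single number to pair. The count of 33 genes lower in all 3 replicates was 29 with total counts (ORC3, MCM4, GINS4 and LIG1 left it) and 31 with upper quartile scaling, and ran from 33 to 36 on leaving out each labelled knockdown replicate. The count of 1 gene higher ran from 1 to 5, the latter without replicate 3 (ORC4, ORC5, POLA2, RFC1 and RPA2). The 4 genes at least 1.5-fold lower ran from 5 to 16 on leaving out a replicate, were 3 with total counts and with upper quartile scaling (without MCM3), and were 2 with length and GC trends removed. The count 1.5-fold higher ran from 0 to 1. GMNN alone was 2-fold lower; the count ran from 1 to 6 on leaving out a replicate and was 0 with total counts, 0 with upper quartile scaling and 0 with trends removed. The median log2 difference of -0.52 ran from -0.57 to -0.49 on leaving out a replicate, and was -0.43 with total counts and -0.43 with trends removed; total counts moved the median of all genes from -0.02 to 0.07. Among 24 genes whose exons overlap no other gene, a choice made after seeing the data, 18 were lower, 0 higher, 4 were 1.5-fold lower and the median was -0.52. The mean difference kept its sign under each of 10 settings in 35 genes, and ORC4, ORC5, ORC6, POLA1, POLE and RPA2 were the exceptions. RLE scaling, prior counts of 0.5 and 5, a minimum of 5 CPM and no minimum changed none of these counts by over 1.5 times. DESeq2 called 253 of 16634 genes and 0 members, with a smallest adjusted p of 0.0821 for a member. edgeR's test was not rerun without each replicate. Depth limits statements on POLA2 (265 counts in the empty vector library) most.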
